A study of Rattus norvegicus with 9 samples.

Results

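Tendon and myotendinous matrix genes were followed in the rat gastrocnemius, a calf muscle that the sciatic nerve supplies and that ends in the Achilles tendon. The list held 8 genes: Chad, Comp, Tnmd, Fmod, Thbs4, Scx, Mkx and Kera, found by matching the NCBI gene ID of each file to its RefSeq symbol. Of these, 7 were listed in all 9 libraries, among 13752 gene IDs in the series, and the same 7 passed the filter on low counts. The gene ID of Mkx (Mohawk, a homeobox factor of tendon cells) was in 0 of the 9 files and is counted as 0. Every transcript ID in the files began with NM or NR, whereas all 3 Mkx transcripts in the RefSeq table were XM models, so its 0 gives no measure of its expression.

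Messenger RNA was sequenced in 3 groups of 3 libraries from male rats aged 8 weeks, from 1 µg of total RNA per library. SHAM rats had a sham operation. DN rats had a sciatic nerve injury and no stimulation. DN-SM rats had the same injury and 4 weeks of daily electrical stimulation, begun at once after surgery, through surface electrodes over the muscle (25 V, 1 mA, 2 Hz, pulse width 300 ms as the labels give it). All groups were anaesthetised, and SHAM and DN wore the electrodes for 10 minutes without current. The labels give neither the strain, the kind of nerve injury nor the time of collection for SHAM and DN. They also do not say how the muscle was cut from its tendon, or whether each library came from its own animal, so p-values measure the spread between these samples only.

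Tendon is a dense matrix of type I collagen, kept by tenocytes, that joins muscle to bone, and the myotendinous junction is the folded border where force passes from fibre to tendon. Scx (scleraxis) and Mkx are transcription factors of the tendon lineage, Tnmd (tenomodulin) is a membrane protein of mature tenocytes, and Fmod (fibromodulin), Kera (keratocan) and Chad (chondroadherin) are leucine-rich repeat proteins of the matrix. Comp (cartilage oligomeric matrix protein) and Thbs4 (thrombospondin 4) are pentameric thrombospondins, and Thbs4 is also made at the myotendinous junction. Several of these proteins occur in cartilage and other connective tissue too. Muscle fibres are not known as the main source of most of them, which makes their sum a rough gauge of tendon in a muscle sample.

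In mice, scleraxis binds the E-box, CANNTG, at tendon genes. The RefSeq promoter table (build GRCr8) held 7 of the 8 genes and none for Scx. The windows of 3 genes are shown: Chad and Comp, the members that passed the test below, and Tnmd, which spread most between libraries within SHAM and within DN. Each runs from 250 bases before to 50 after the gene start, with E-boxes in capitals.
Chad, chr10:80008795-80009094, plus strand: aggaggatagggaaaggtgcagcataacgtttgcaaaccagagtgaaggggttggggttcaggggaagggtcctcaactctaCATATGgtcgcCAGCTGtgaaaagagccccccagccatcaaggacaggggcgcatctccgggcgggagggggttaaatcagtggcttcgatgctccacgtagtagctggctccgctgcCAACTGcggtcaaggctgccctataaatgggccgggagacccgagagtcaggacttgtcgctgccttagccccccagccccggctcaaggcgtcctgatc
Comp, chr16:19089499-19089798, minus strand: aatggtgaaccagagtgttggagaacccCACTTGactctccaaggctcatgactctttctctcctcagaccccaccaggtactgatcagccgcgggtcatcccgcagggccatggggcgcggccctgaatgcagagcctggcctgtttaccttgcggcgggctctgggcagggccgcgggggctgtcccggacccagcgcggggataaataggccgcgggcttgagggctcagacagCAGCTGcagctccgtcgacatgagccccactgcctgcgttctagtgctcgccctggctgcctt
Tnmd, chrX:101350182-101350481, plus strand: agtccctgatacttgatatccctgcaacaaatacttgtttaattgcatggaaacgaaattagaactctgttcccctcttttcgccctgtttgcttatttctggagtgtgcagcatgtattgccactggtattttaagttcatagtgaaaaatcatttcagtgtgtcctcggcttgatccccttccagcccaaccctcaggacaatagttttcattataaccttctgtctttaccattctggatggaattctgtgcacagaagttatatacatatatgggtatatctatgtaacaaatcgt
CANNTG reads the same on both strands. It occurred 3 times in the Chad window, 2 times in the Comp window, 1 time each for Thbs4 and Kera, and 0 times for Tnmd, Fmod and Mkx. At least 1 match was present in 72.1% of the 33469 promoter windows, at least 2 in 38.6% and at least 3 in 16.6%. These counts describe the letters of the windows and carry no measure of binding.

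Total expected counts were between 7926445 and 8893843 per library. Skeletal muscle markers were abundant in every library: Acta1, the actin of skeletal muscle, held 9.63% to 13.1% of counts, and the summed level of 9 fibre genes was 133402 to 160691 FPKM. SHAM replicates 2 and 3 stood apart in the tendon genes, at the bottom and the top of their group in all 7. The edgeR fold changes and calls of the tendon genes were therefore also computed without each library. The sums, ratios, spreads, overlaps and library orders below were not. SHAM replicate 2 also stood apart outside the list: the myosin gene Myh4 was at 6969 FPKM there, against 1752 and 2331 in SHAM replicates 1 and 3. A lower level in whole muscle can come from fewer tendon cells or from less RNA per cell, and these cannot be told apart here.

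The summed level of the tendon genes differed widely between libraries, even within the sham group. The FPKM (fragments scaled to transcript length and library size) of the 7 genes summed to 109.8 in SHAM replicate 1, 57.1 in replicate 2 and 210.0 in replicate 3. The DN libraries held 91.9, 121.8 and 106.7, and the DN-SM libraries 41.7, 76.4 and 54.3. The 3 DN-SM sums thus lay below the 3 DN sums, while the SHAM sums ran from within the DN-SM range to above every other library. The mean sum was 125.6 ± 77.6 FPKM for SHAM, 106.8 ± 14.9 for DN and 57.4 ± 17.6 for DN-SM (SD, n = 3). Thbs4 and Fmod made up 62.1% to 77.1% of each sum. Without them the sums were 30.9, 21.7 and 48.1 FPKM in SHAM, 22.9, 32.4 and 26.2 in DN, with 12.0, 20.9 and 13.3 in DN-SM.

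The order of the libraries was shared by all 7 genes in SHAM and in part in the other groups. SHAM replicate 3 had the highest level of all 9 libraries for all 7 genes, and SHAM replicate 2 the lowest within SHAM for all 7. DN-SM replicate 2 was the highest of its group for all 7. In DN, replicate 2 was the highest for 5 genes and replicate 3 for the other two, Thbs4 and Scx, while that same replicate was the lowest for Chad, Comp, Fmod and Kera. DN-SM replicate 1 was the lowest library of all 9 for 4 genes. The complete order (SHAM replicate 3 highest and 2 lowest, DN replicate 2 and DN-SM replicate 2 highest) was shown by 5 of the 7 members and by 217 of 10129 tested genes, or 2.14%. That order was read from the members, so it is a description of them.

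**Figure D1:**
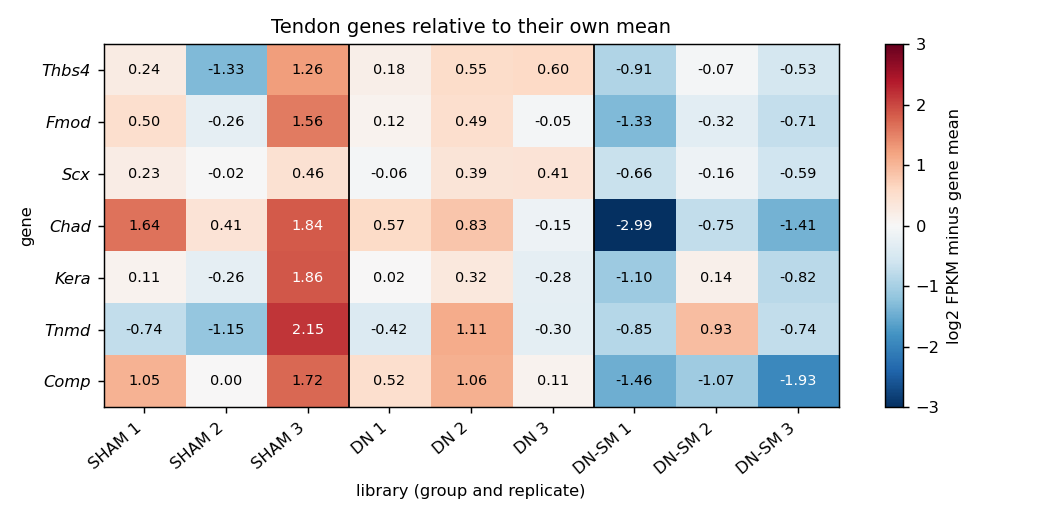
Log2 FPKM of 7 tendon genes (rows) in 9 libraries (columns), each as the difference from the gene's own mean over the libraries, with colour and printed value showing that difference. SHAM replicate 3 is above the mean for all 7 genes, and DN-SM replicates 1 and 3 are below it for all 7.

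The spread between sham libraries was large for these genes. Between the SHAM libraries the SD of log2 CPM, a count divided by library size, had a median of 0.91 over the 7 genes and 0.25 over all 10129 tested genes. In DN these medians were 0.34 and 0.19, and in DN-SM 0.50 and 0.17. Tnmd had the widest SHAM spread of the members, with an SD of 1.70 that exceeded those of 99.8% of genes by rank. Scx had the smallest, 0.25, at the 49.1st percentile. Between SHAM replicates 3 and 2 the FPKM ratio was 9.86 for Tnmd, 6.02 for Thbs4, 4.36 for Kera, 3.52 for Fmod, 3.29 for Comp and 2.70 for Chad, but 1.39 for Scx.

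Among the factors, Scx (gene ID 680712) was at 17.4, 14.7 and 20.4 FPKM in SHAM replicates 1 to 3. It was at 14.3, 19.5 and 19.7 in DN and at 9.42, 13.3 and 9.85 in DN-SM. All DN-SM libraries lay below every other library, and SHAM and DN overlapped. The log2 fold change was -0.61 in DN-SM against DN (SE 0.188, edgeR adjusted p = 0.175) and -0.67 in DN-SM against SHAM (SE 0.188, adjusted p = 0.132), so neither passed. On the RefSeq map Scx lies within the span of Bop1, a ribosome biogenesis gene, and the files do not say whether strand was used in counting, so reads of the pair may be shared. Bop1 itself was at 12.9 to 14.9 FPKM in SHAM, 12.7 to 15.6 in DN and 10.5 to 13.4 in DN-SM.

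Tnmd (gene ID 64104), the mature tenocyte marker, was at 1.04, 0.78 and 7.69 FPKM in SHAM, 1.30, 3.75 and 1.41 in DN, with 0.96, 3.31 and 1.04 in DN-SM. In each group 1 library stood well above the other two, and the groups overlapped throughout. Its expected counts were 9 to 91 per library. The log2 fold changes were -0.67 in DN against SHAM (95% interval -2.79 to 1.45) and -0.18 in DN-SM against DN (-2.44 to 2.08), so a change of either sign and of several fold was within the error. Without SHAM replicate 3 the first turned to 1.19.

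Fmod (gene ID 64507), which binds collagen and sets fibril width, was at 34.9, 20.6 and 72.7 FPKM in SHAM, 26.8, 34.8 and 23.9 in DN, with 9.84, 19.9 and 15.1 in DN-SM. Every DN-SM library was below every SHAM and DN library, though SHAM replicate 2 was within 1 FPKM of DN-SM replicate 2. The log2 fold change was -0.84 in DN-SM against DN (SE 0.475, edgeR adjusted p = 0.387) and -1.50 in DN-SM against SHAM (SE 0.478, adjusted p = 0.242). Neither difference passed the test. At one end Fmod overlaps LOC120096251, a long non-coding RNA gene, so its reads, and the ratios to Fmod given later, may hold some of that gene.

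Kera (gene ID 314771), a keratan sulfate proteoglycan best known from cornea, was at 2.17, 1.68 and 7.32 FPKM in SHAM. It was at 2.04, 2.52 and 1.66 in DN and at 0.94, 2.22 and 1.14 in DN-SM. SHAM replicate 3 stood alone above a common range for the other 8 libraries. The log2 fold change in DN against SHAM was -0.94 (SE 0.548, edgeR adjusted p = 0.347) and became 0.07 without SHAM replicate 3. In DN-SM against SHAM it was -1.37 (SE 0.571, adjusted p = 0.351), and -0.36 without that library.

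Chad (gene ID 29195), a cell-binding matrix protein, was at 8.66, 3.70 and 10.0 FPKM in SHAM. It was at 4.14, 4.97 and 2.52 in DN, with 0.35, 1.66 and 1.05 in DN-SM. SHAM and DN overlapped, whereas the DN-SM libraries were the 3 lowest of the series. Chad fell in DN-SM against SHAM, with a log2 fold change of -2.83 (SE 0.497, edgeR adjusted p = 0.0349). Against DN the value was -1.83 (SE 0.516, adjusted p = 0.161) and did not pass. DN-SM rested on 5, 24 and 14 expected counts, so its level is imprecise. Chad lies within the span of Acsf2, a gene for a fatty acid activating enzyme, which was at 3.68 to 12.7 FPKM in SHAM, 7.82 to 14.8 in DN and 7.01 to 10.4 in DN-SM.

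Comp (gene ID 25304), which spaces collagen fibrils in tendon and cartilage, was at 1.65, 0.80 and 2.63 FPKM in SHAM. It was at 1.14, 1.66 and 0.86 in DN, with 0.29, 0.38 and 0.21 in DN-SM. SHAM and DN overlapped, and all DN-SM libraries were below all others. Comp fell in DN-SM against SHAM, with a log2 fold change of -2.49 (SE 0.488, edgeR adjusted p = 0.0414), and was at -1.95 against DN (SE 0.505, adjusted p = 0.144). The expected counts summed to 106 over SHAM, 76 over DN and 18 over DN-SM.

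Thbs4 (gene ID 29220) had the highest mean FPKM of the list. It was at 44.0, 14.8 and 89.2 FPKM in SHAM, 42.2, 54.6 and 56.6 in DN, with 19.9, 35.6 and 25.9 in DN-SM. The DN-SM libraries lay below the DN libraries, and the SHAM libraries spanned both groups. The log2 fold change was -0.82 in DN-SM against DN (SE 0.574, edgeR adjusted p = 0.487), -0.84 in DN-SM against SHAM (adjusted p = 0.596) and -0.03 in DN against SHAM. The last value ran from -0.46 to 0.79 with 1 library left out.

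**Figure D2:**
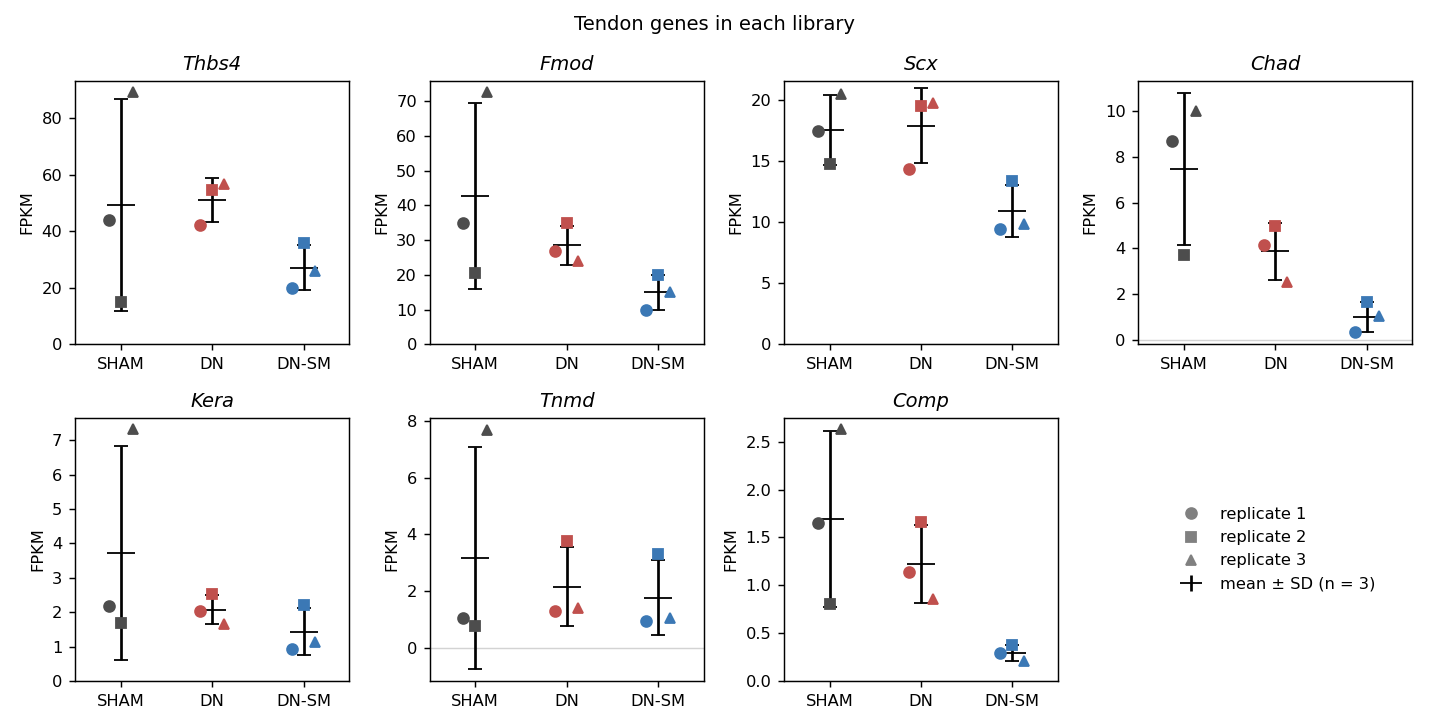
FPKM of 7 tendon genes in SHAM, DN and DN-SM, 1 panel per gene, with 1 point per library (shape gives the replicate) and the mean ± SD over 3 libraries in black. SHAM replicate 3 is the highest point in every panel, and for Chad, Comp, Scx and Fmod all 3 DN-SM points lie below all others.

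By mean level over the 9 libraries the order was Thbs4 at 42.5 FPKM, Fmod at 28.7, Scx at 15.4, Chad at 4.12, Kera at 2.41, Tnmd at 2.36 and Comp at 1.07. FPKM is scaled to transcript length, so it can be compared between genes. Thbs4 and Fmod overlapped in their ranges over the libraries, as did Chad, Kera, Tnmd and Comp. Scx, at 9.42 to 20.4 FPKM, overlapped Thbs4 and Fmod. Chad, at up to 10.0, also reached the lowest Fmod (9.84) and Scx levels.

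The effect of nerve injury was addressed by DN against SHAM. Of the 7 genes 0 were called by edgeR (quasi-likelihood test, Benjamini-Hochberg adjusted p under 0.05), beside 432 of 10129 genes in all, or 4.26% (2.57% higher and 1.7% lower in DN). All 7 had a fold change below 0, with a median of -0.66 on the log2 scale against -0.01 over all genes. Chad had an unadjusted p under 0.05 (0.0393), against 22.3% of all genes (11.4% lower), and DESeq2 and limma also called 0 of the 7. Without SHAM replicate 3 the fold changes of Tnmd, Fmod, Thbs4, Scx and Kera turned positive, at 1.19, 0.01, 0.79, 0.10 and 0.07. The SHAM and DN libraries overlapped for all 7 genes, while over all genes the groups did not overlap for 15.9% (higher in DN) and 6.91% (lower).

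The effect of stimulation was addressed by DN-SM against DN, where all 7 fold changes were below 0 with a median of -0.82 (all genes -0.01). Again 0 of 7 were called by edgeR, and 1 of 10129 genes was called in all, or 0.00987%. An unadjusted p under 0.05 was found for 3 of the 7 (Chad, Comp and Scx), each lower in DN-SM, beside 6.5% of all genes in that direction. The FPKM of the groups did not overlap for 5 of the 7 (Chad, Comp, Fmod, Thbs4 and Scx), against 21.3% of all genes lower and 11.4% higher in DN-SM. In a fit restricted to DN and DN-SM, 4 of the 7 were called: Chad (-1.83, edgeR adjusted p = 0.044), Comp (-1.94, 0.015), Thbs4 (-0.81, 0.0422) and Scx (-0.61, 0.04996). That fit called 716 genes in all, 592 higher and 124 lower in DN-SM. DESeq2 called Chad (adjusted p = 0.014), beside 231 of the 10129 genes in all (48 lower). It gave no adjusted p for Comp, Tnmd and Kera, so they could not be called there. Comp was called without SHAM replicate 2 (adjusted p = 0.0297) or 3 (0.0262), and Chad without SHAM replicate 2 (0.0497). Genes called in all were then 339 (56 lower) without SHAM replicate 2 and 416 (40 lower) without SHAM replicate 3. In the restricted fit and these fits the filter on low counts was applied anew, so their counts are not shares of the 10129 genes. The comparison shares its DN libraries with the one above.

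Stimulated injured muscle was also set against sham muscle, and here 2 of 7 were lower, Chad and Comp, beside 43 of 10129 genes, or 0.425% (0.415% were higher and 0.839% called in either direction). An unadjusted p under 0.05 was found for 5 of the 7, all lower, against 6.23% of all genes. The median over the 7 was -1.37 against 0.01 over all genes. The groups did not overlap for 4 of the 7 (Chad, Comp, Fmod and Scx), against 9.34% of genes lower and 7.49% higher in DN-SM. Both calls depended on which library was left out. They held without SHAM replicate 2 (adjusted p = 0.00948 for Chad and 0.00929 for Comp) and without DN replicate 3. They were lost without SHAM replicate 1 or 3, DN replicate 1 or 2, or any DN-SM library, with adjusted p up to 0.116 for Chad and 0.167 for Comp. The fold changes themselves stayed between -3.38 and -2.42 for Chad and between -2.81 and -1.97 for Comp. With the replicate number as a block both had an adjusted p of 0.0995, and in the fit of these groups alone 0.0821 and 0.0914. With limma Comp was not called on log2(FPKM + 1) (-1.0, adjusted p = 0.107, or 0.163 with no filter) or on log2(FPKM + 0.1) (-2.07, 0.0806). Chad was not called by limma with no filter (-2.03, 0.0981).

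**Figure D3:**
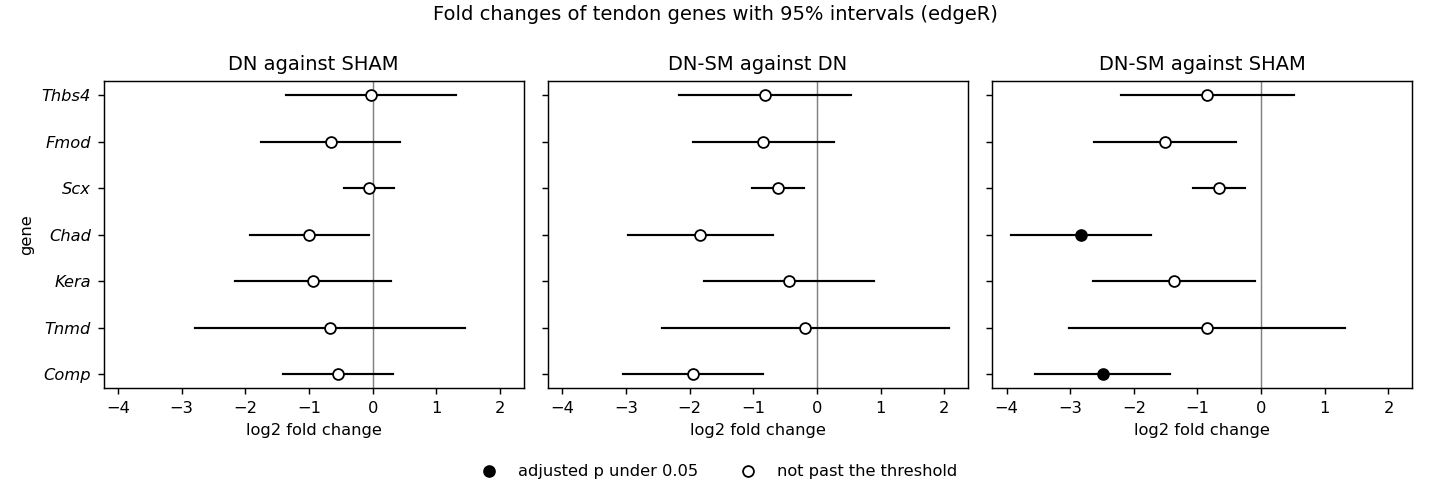
Log2 fold changes of 7 tendon genes with 95% intervals from edgeR, in 3 comparisons (panels), with filled points for an adjusted p under 0.05. Chad and Comp in DN-SM against SHAM are the filled points, at -2.83 and -2.49, and all 21 points lie below 0.

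To set the members against each other within a library, each was also divided by Fmod in the same library, a step chosen after the values were seen. The ratio of Chad to Fmod was 0.248, 0.179 and 0.138 in SHAM, 0.155, 0.143 and 0.105 in DN, with 0.0356, 0.0835 and 0.0694 in DN-SM. Even relative to Fmod the DN-SM libraries lay below all others for Chad. The ratio of Comp to Fmod was 0.0473, 0.0388 and 0.0362 in SHAM, 0.0425, 0.0477 and 0.036 in DN, with 0.0295, 0.0191 and 0.0139 in DN-SM, again with the DN-SM libraries lowest. Thbs4 went the other way: its ratio to Fmod was 1.26, 0.718 and 1.23 in SHAM, 1.57, 1.57 and 2.37 in DN, with 2.02, 1.79 and 1.71 in DN-SM. Both injured groups thus lay above SHAM in Thbs4 per Fmod, though Thbs4 itself was at -0.03 in DN and -0.84 in DN-SM against SHAM (log2). The values of Fmod, the divisor, were -0.66 and -1.50, and none of these passed the edgeR test. The ratios of Tnmd, Scx and Kera overlapped between groups in each comparison. An exact two-sided permutation test over 3 against 3 libraries cannot go below p = 0.1, which these 6 non-overlapping ratios reached (adjusted p = 0.3 over 18 ratios). Ratios of other genes to Fmod were not computed, so no share over all genes can be set beside them.

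**Figure D4:**
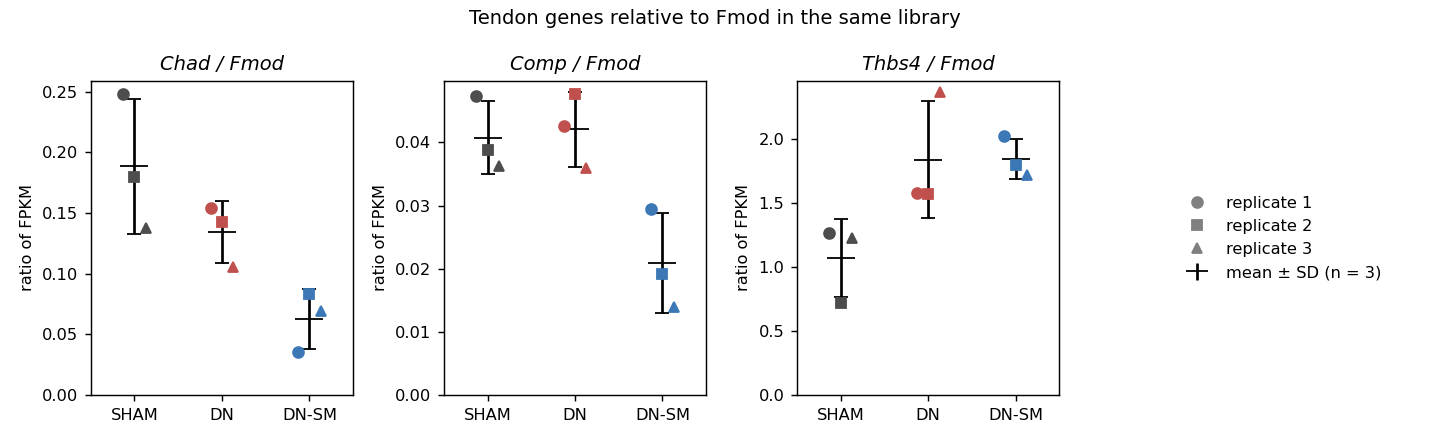
FPKM of Chad, Comp and Thbs4 divided by the FPKM of Fmod in the same library, with 1 point per library and the mean ± SD over 3 libraries. DN-SM lies lowest for Chad and Comp, at up to 0.0835 and 0.0295, and SHAM lies lowest for Thbs4, at up to 1.26.

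The genes most alike in pattern were sought among all tested genes by the Pearson correlation of their log2 CPM with the mean z-score of the 7 members over the 9 libraries. The 8 closest were Col11a2 (r = 0.97), Cilp2 (0.96), Mark2 (0.94), Arhgap9 (0.94), Col1a1 (0.94), Col11a1 (0.94), Slc2a5 (0.94) and Vps11 (0.93). Spearman's rho ran from 0.83 for Vps11 to 0.98 for Mark2. Of the 8, 3 were in the list of tendon matrix genes described below and 0 in the fibroblast list. Col1a1 encodes a chain of type I collagen, the bulk of tendon, Col11a1 and Col11a2 chains of the minor fibrillar collagen XI, and Cilp2 a matrix protein of cartilage and connective tissue. With the farthest libraries, SHAM replicate 3 and DN-SM replicate 1, left out, r ran from 0.79 for Vps11 to 0.99 for Mark2. It was 0.93 for Col11a2, 0.87 for Cilp2 and 0.93 for Col1a1. Within groups, after removal of each group's mean, it ran from 0.89 for Vps11 to 0.98 for Cilp2. There it was 0.94 for Col11a2, 0.90 for Mark2 and 0.90 for Col1a1. These are the top of 10129 correlations over libraries that share depth and groups, and they are given as description.

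Col11a2 was at 1.98, 1.04 and 3.83 FPKM in SHAM, 1.72, 1.91 and 1.22 in DN, with 0.61, 0.98 and 0.58 in DN-SM. Cilp2 was at 6.86, 3.27 and 14.7 FPKM in SHAM, 3.8, 5.89 and 2.78 in DN, with 1.32, 3.11 and 1.73 in DN-SM. Both had their lowest library in DN-SM and their highest in SHAM replicate 3. Col1a1 was at 326, 132 and 411 FPKM in SHAM, 218, 311 and 253 in DN, with 131, 189 and 124 in DN-SM. None of these 3 passed the test in DN-SM against DN, where the log2 fold changes were -1.06 (edgeR adjusted p = 0.257), -0.93 (0.454) and -0.72 (0.310). In a fit restricted to DN and DN-SM, which called 716 genes in all, Col11a2 (0.0329) and Col1a1 (0.0385) passed.

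**Figure D5:**
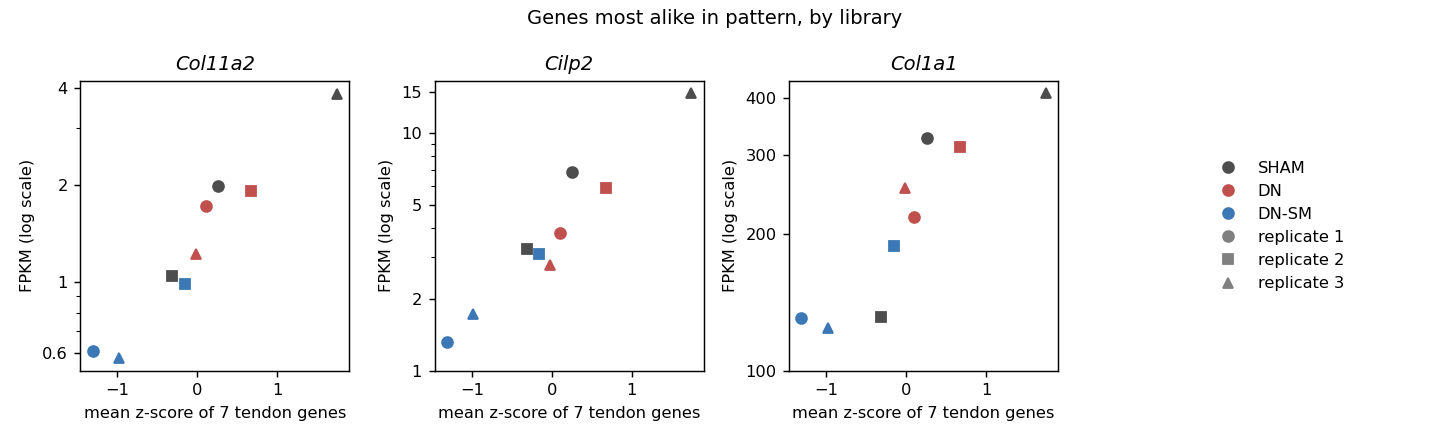
FPKM (log scale) of Col11a2, Cilp2 and Col1a1 against the mean z-score of 7 tendon genes, with 1 point per library (colour gives the group, shape the replicate). SHAM replicate 3 is at the top right of each panel and DN-SM replicates 1 and 3 are at the lower left.

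Of 24 genes in a list of tendon collagens, proteoglycans and their modifiers, 21 were listed and 19 tested. In DN against SHAM 0 were higher and 1 was lower (median -0.16), beside 2.57% and 1.7% of all genes. That gene was Prg4, lubricin, a lubricant of gliding surfaces, which fell by 0.91 on the log2 scale (SE 0.213, edgeR adjusted p = 0.0378). The Prg4 level was 8.09 ± 1.47 FPKM for SHAM, 4.55 ± 0.461 for DN and 7.23 ± 2.17 for DN-SM (SD, n = 3). Its call was lost without SHAM replicate 1 or 2, any DN library or DN-SM replicate 2 (adjusted p up to 0.126), and with limma (0.084 to 0.141). In DN-SM against DN 0 of the 19 were called, 4 had a fold change above 0 and 15 below, with a median of -0.37. In DN-SM against SHAM 0 of the 19 were called and the median was -0.25. Its summed FPKM was 420 to 1027 in SHAM, 662 to 892 in DN and 459 to 625 in DN-SM.

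Of 12 tested regulators, Tgfb1, a growth factor that induces matrix genes, was higher in DN than in SHAM (0.69, SE 0.162, edgeR adjusted p = 0.0376), and 0 were called in the other comparisons. That is 1 of 12, beside 2.57% of all genes higher in DN. That call was lost on leaving out any library except SHAM replicate 3 (adjusted p up to 0.152), in a fit restricted to DN and SHAM (0.0864) and with limma (0.0554 to 0.0904). Egr1, an early response factor that also acts in tendon, was at -0.88 in DN-SM against DN (adjusted p = 0.187). Of 13 tested junction genes, Itgb1bp2, a muscle integrin-binding protein also called melusin, was higher in DN than in SHAM (0.57, SE 0.137, adjusted p = 0.0396), 1 of 13 beside the same share. This call was likewise lost without any library except SHAM replicate 3 (adjusted p up to 0.132), in a fit restricted to DN and SHAM (0.0928) and with limma (0.0605 to 0.096). In DN-SM against DN the integrin subunits Itga7, the alpha chain at the junction, and Itgb1, its partner, had log2 fold changes of -0.43 (adjusted p = 0.155) and 0.47 (0.162). There 0 of the 13 were called. The FPKM of the groups did not overlap for 7 lower and 1 higher in DN-SM, beside 21.3% and 11.4% of all genes. The junction genes summed to 685 to 831 FPKM in SHAM, 822 to 861 in DN and 684 to 729 in DN-SM. Nrap held most of that sum, with 465 ± 23.5 FPKM for DN and 364 ± 14.7 for DN-SM (SD, n = 3). Col22a1, a collagen of the junction, was listed in no file, which gives no measure of its expression. The trimeric thrombospondins Thbs1 and Thbs2, with Thbs3, gave 0 calls of 3 in each comparison, and Thbs1 was at -0.80 in DN-SM against DN (adjusted p = 0.218). All 3 were lower in DN-SM than in DN with no overlap of FPKM, beside 21.3% of all genes. They summed to 2.03 to 6.47 FPKM in SHAM, 4.31 to 4.97 in DN and 2.73 to 3.16 in DN-SM.

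Markers of neighbouring tissues were read beside these results. Cartilage markers summed to 1.79 to 5.16 FPKM in SHAM, 2.44 to 3.98 in DN and 1.42 to 2.03 in DN-SM, with 8 of 12 listed. Col10a1, Matn1, Hapln1 and Epyc were in no file, which gives no measure of their expression. Acan, the main proteoglycan of cartilage, was at most 0.1 FPKM, and 4 bone markers summed to at most 0.7 FPKM. Fibroblast markers, 8 of 9 listed, summed to 321 to 745 FPKM in SHAM, 435 to 482 in DN and 364 to 378 in DN-SM. In DN against SHAM 1 of 8 was higher, Cd34 (0.72, edgeR adjusted p = 0.0285), beside 2.57% of all genes. That call was lost without SHAM replicate 1 or 2 or any DN library (adjusted p up to 0.118). It was also lost in a fit restricted to DN and SHAM (0.0543) and by limma with no filter (0.068). Schwann cell markers summed to 60.2 to 69.0 FPKM in SHAM, 132 to 308 in DN and 77.9 to 172 in DN-SM, and adipocyte markers to 79.3 to 103, 118 to 163 and 105 to 133. Fabp4 made up most of the adipocyte sum, with 75.1 ± 4.20 FPKM for SHAM, 111 ± 19.3 for DN and 108 ± 14.4 for DN-SM (SD, n = 3). Of the 5 adipocyte genes tested in DN-SM against SHAM, 1 had a fold change above 0 and 4 below, with a median of -0.25. Slow-fibre genes summed to 4192 to 15150 FPKM in SHAM, 15560 to 21286 in DN and 7489 to 17220 in DN-SM. SHAM replicate 2, lowest of its group in the tendon genes, also held the lowest SHAM sum of slow-fibre and of fibroblast genes. The highest SHAM sum of both was in SHAM replicate 1. The fibroblast and cartilage sums of DN-SM lay below those of DN. Gsn (gelsolin) made up most of the fibroblast sum, with 331 ± 13.2 FPKM for DN and 273 ± 17.2 for DN-SM (SD, n = 3). Of the 8 fibroblast genes tested in that comparison 0 were called, 3 had a fold change above 0 and 5 below, with a median of -0.10. Of the 3 cartilage genes 0 were called, 1 was above 0 and 2 were below. Col11a2, the gene most alike above, had the highest mean of the cartilage markers, with 1.62 ± 0.356 FPKM for DN and 0.723 ± 0.223 for DN-SM (SD, n = 3). For both lists their part in the result was not tested. The library order seen for 5 of 7 members was found in 5 of 19 tendon matrix genes and 2 of 3 cartilage genes (Col2a1 and Col11a2). It was found in 1 of 8 fibroblast genes and 0 of 7 Schwann cell genes.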

How the data were processed

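The authors deposited 1 table per library. Its expected count column holds, per the file headers, estimated fragments per gene that the authors had not normalized. Its FPKM column, per the file headers, was adjusted for transcript length and depth before deposit. The submitters' processing notes name GATK, HISAT2, RSEM and rat build rn6, and their settings are not given in the sources used here. A gene absent from a table counted as 0. Symbols were matched through RefSeq (13649 IDs by gene ID, 7 by transcript, 96 unmatched).

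Expected counts were rounded and tested in 1 fit of all 9 libraries with edgeR 4.0.16 (TMM factors, robust quasi-likelihood F test, two-sided) after filterByExpr (minimum count 10, minimum total 15, leaving 10129 genes), with Benjamini-Hochberg adjustment over all genes. Intervals are 95%. The fit was tested on simulated data. Log2 CPM used a prior count of 2. Limma 3.58.1 and DESeq2 1.42.0 were alternatives. Libraries of a group differed beyond sampling noise (chi-square per degree of freedom 7.73 to 72.3). The members, the gene lists and the rule for named genes (members, list genes called or of smallest p, the 8 most alike) were chosen with earlier results of these data known.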

Additional observations from a re-analysis of the deposited data

How the results depend on the processing

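Counts of called genes depended on the tool and the libraries. In DN against SHAM 432 genes were called, against 753 with DESeq2, 156 in a fit of these groups alone, 275 and 243 with limma on log2(FPKM + 1) and log2(FPKM + 0.1), 112 with limma and no filter, and 58 to 1183 with 1 library left out. In DN-SM against DN 1 gene was called, against 231 with DESeq2, 716 in the fit of these groups alone, 0 with limma on log2(FPKM + 0.1), and 0 to 416 with 1 library left out; tendon genes called went from 0 to 1, 4 and, with 1 library left out, 0 to 2. In DN-SM against SHAM 85 genes were called, against 266 with DESeq2, 28 in the fit of these groups alone, 42, 43 and 12 with limma in the same order as above, and 15 to 137 with 1 library left out; the 2 tendon genes called became 1, 0, 1, 1 and 0, and 0 to 2. The cause was not tested. Other scalings and filters kept these counts within 1.5 times. DESeq2 gave no adjusted p for Comp in either comparison with DN-SM, nor for Tnmd and Kera in DN-SM against DN. Its counts of tendon genes leave those out.

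Deviations of same-numbered replicates from their group means had correlations of -0.05 to 0.11, and those of other pairs -0.10 to 0.07. With 3 libraries per group this cannot show whether the numbers pair libraries, and the labels do not say. With the replicate number as a block, 39 genes and 0 tendon genes were called in DN-SM against SHAM, 317 genes in DN against SHAM and 1 in DN-SM against DN, and Thbs4 turned to 0.12 in DN against SHAM.

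Signs turned in DN against SHAM for Thbs4 with limma (0.37, 0.39 and 0.37), for Scx (0.0228, 0.0238 and 0.0228) and for Tnmd with log2(FPKM + 0.1) (0.0195). With 1 library left out, the log2 fold change there ran from -1.34 to 1.19 for Tnmd, -0.98 to 0.0138 for Fmod, -0.46 to 0.79 for Thbs4, -0.14 to 0.10 for Scx and -1.28 to 0.0681 for Kera. For Tnmd it ran from -0.99 to 0.49 in DN-SM against DN, and from -1.67 to 1.01 in DN-SM against SHAM, positive without SHAM replicate 3. Low counts of Chad, Comp and Tnmd limit their precision. For genes outside the list, these alternatives were chosen after seeing the data.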
